A study of Mus musculus with 8 samples.

Results

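Sox1 encodes a SoxB1 transcription factor of the HMG-box class, known from neural progenitors and the lens and not from hepatocytes. H3K27me3, trimethylation of lysine 27 on histone H3, is written by Polycomb repressive complex 2 and marks developmental genes that stay silent in a differentiated tissue. It often spreads from CpG-rich promoters into broad domains, so an island caller can report a single domain as 1 long island or as several islands separated by gaps. The region described here is a 1.1 Mb window of mouse chromosome 8, from 11.9 to 13 Mb of build mm9, set around Sox1. It was chosen by the island lists themselves, because it holds the longest region covered in all 6 libraries of 600 to 1100 bp and the island after it. That region measured 693.2 kb, against 464.8 kb for the next longest, so length and cover in these lists are given as a description. In all, 81 of the 107140 islands in the 8 lists overlapped the window, from 5 to 19 per list.

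The libraries came from livers of 7-week-old male CD-1 (ICR) mice, an outbred stock, each liver processed on its own. TCPOBOP mice had been injected with 3 mg/kg of TCPOBOP, an agonist of the nuclear receptor CAR, and vehicle mice with 1% DMSO in corn oil, and livers of both were collected 3 h later. The 600 to 1100 bp class, digested to 500 bp, gave 3 TCPOBOP and 3 vehicle libraries from 6 livers. Fragments over 1100 bp, digested to 200 bp, gave 1 TCPOBOP and 1 vehicle library, each from the ChIP sample that also gave replicate 1 of its treatment. Chromatin came from whole liver tissue, so a weaker mark and a mark in fewer cells cannot be told apart. The locus of the genes Alb and Afp (albumin and alpha-fetoprotein), taken at an approximate mm9 position, was 0% covered by islands in all 8 lists. The median genome tile of 1.1 Mb was 4.93% covered as a mean of the 6 livers. A locus without islands therefore cannot check the tissue.

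The 6 lists of 600 to 1100 bp held 6295 to 14748 islands over 174 to 340 Mb, and the lists of fragments over 1100 bp held 22077 (TCPOBOP) and 17577 (vehicle) islands over 676 and 654 Mb. The lowest score kept in a list was 71.0, 77.7 and 84.6 in TCPOBOP replicates 2 and 3 and vehicle replicate 1. It was 44.2, 48.3 and 41.0 in TCPOBOP replicate 1 and vehicle replicates 2 and 3. This difference between lists crosses the treatments. The treatment differences in window cover, island number and longest island are therefore also given within each kind of list, and other comparisons of all 6 are not. The files give no read counts, so the depth of each library is unknown and no counting interval was computed.

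In the RefSeq gene order of assembly GRCm38.p6, the nearest protein-coding genes before Sox1 are, moving away from it, A230072I06Rik, Tex29 (testis expressed), Arhgef7, an exchange factor for Rac and Cdc42, 1700016D06Rik and Ankrd10. Those after it are Spaca7 (sperm acrosome associated), Tubgcp3 of the gamma-tubulin ring complex, Atp11a, a phospholipid flippase, Mcf2l, and F7, the hepatocyte gene of coagulation factor VII. Sox1 is the only protein-coding gene between A230072I06Rik and Spaca7, a stretch that also holds 5 annotated lncRNAs, among them Sox1ot. No mm9 annotation was used, so the genes were not placed against the island edges. The promoters of Sox1, Spaca7 and F7 are shown to set Sox1's CpG content against that of the gene beside it and of a gene known from hepatocytes. Each runs 5′ to 3′ from 250 bases before to 50 after the gene's RefSeq start in GRCm38.p6, with CG dinucleotides in capitals.
Sox1: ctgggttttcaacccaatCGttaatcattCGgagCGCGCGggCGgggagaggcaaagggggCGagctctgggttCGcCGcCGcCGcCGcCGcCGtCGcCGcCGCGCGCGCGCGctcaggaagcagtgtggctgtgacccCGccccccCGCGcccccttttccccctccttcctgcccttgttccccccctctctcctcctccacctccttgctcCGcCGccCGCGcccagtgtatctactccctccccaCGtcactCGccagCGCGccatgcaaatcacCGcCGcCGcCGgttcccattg
Spaca7: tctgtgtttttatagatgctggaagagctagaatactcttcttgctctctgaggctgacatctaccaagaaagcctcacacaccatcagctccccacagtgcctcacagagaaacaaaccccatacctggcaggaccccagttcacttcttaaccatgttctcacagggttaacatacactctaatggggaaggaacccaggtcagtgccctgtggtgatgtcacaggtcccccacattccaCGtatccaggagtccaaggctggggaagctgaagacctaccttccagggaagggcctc
F7: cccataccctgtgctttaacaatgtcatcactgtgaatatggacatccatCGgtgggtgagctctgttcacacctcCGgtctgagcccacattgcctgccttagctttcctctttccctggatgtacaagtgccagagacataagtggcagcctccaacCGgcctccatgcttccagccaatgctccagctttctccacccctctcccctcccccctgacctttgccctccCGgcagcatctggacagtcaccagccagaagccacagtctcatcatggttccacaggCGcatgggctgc

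The 300 bases at Sox1 held 37 CG dinucleotides, counted once since CG reads the same on both strands, and were 70.7% G or C. Of 32851 promoters of that length in the table, 5.58% held as many or more, and the median promoter held 7. Spaca7 had 1 CG and F7 had 5. Tubgcp3 and Atp11a held 40 and 39, and the most CpG-rich promoters of Arhgef7 and Ankrd10 held 54 and 41. All of these exceeded Sox1, so a CpG-rich promoter was not a property of Sox1 alone in this gene order.

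The window fell into the same 5 parts in nearly every list, as the map of islands shows. An upstream island ended at 11.926 to 11.9312 Mb in all 8 lists. The domain around Sox1 followed, and after it came a short island of 36.4 to 54.0 kb in span, a dense island of 217.2 to 248.8 kb, and a tail of 1 or 2 islands at the window's end. TCPOBOP replicate 3 listed no tail and had 2 islands in place of the short island. Each part, the cut points between them included, was defined after the lists had been seen.

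**Figure D1:**
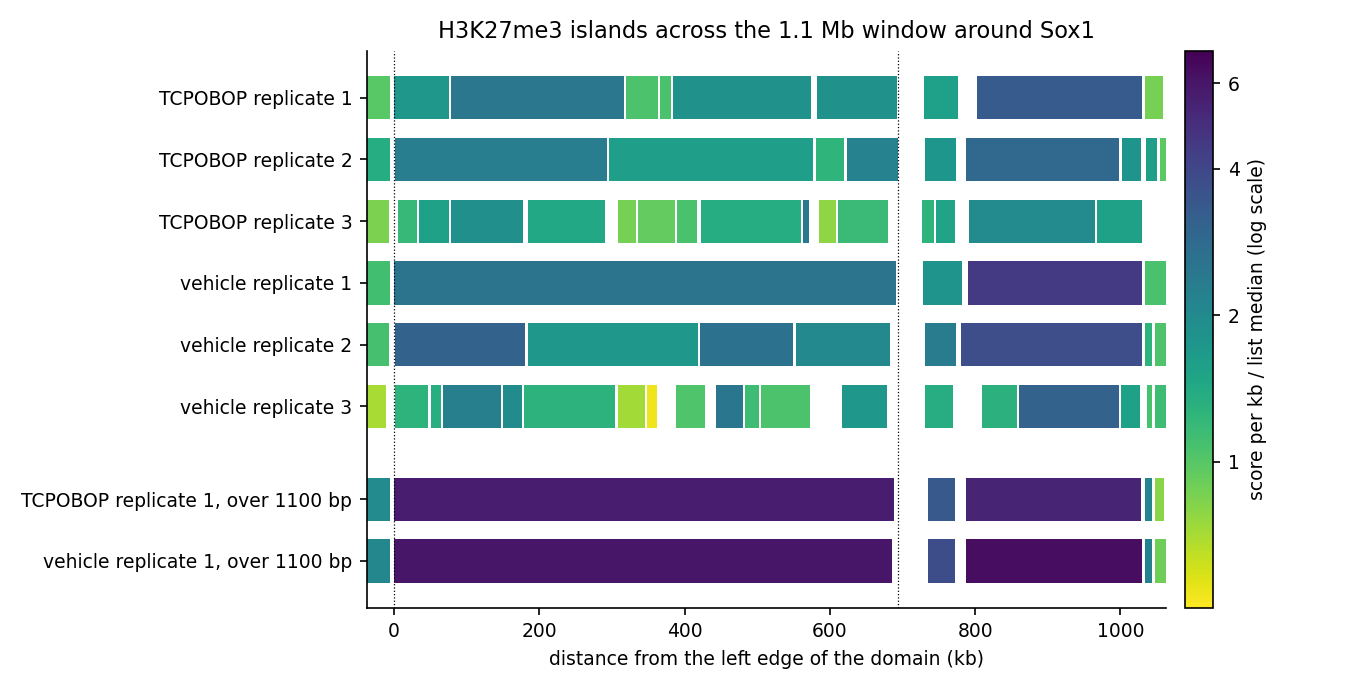
Islands of the 8 lists across the window, 1 row per library, with TCPOBOP above vehicle within each fragment class; the x axis is the distance in kb from the domain's left edge and colour is the island's score per kb divided by the median of its list, on a log scale. Vehicle replicate 1 and both libraries of fragments over 1100 bp carried the domain as 1 unbroken island, TCPOBOP replicate 3 and vehicle replicate 3 as 11 and 12 islands, while the outer edges (dotted lines) lay within 14 kb of each other in all 8 lists.

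The domain's outer edges lay close together in all 8 lists. Its left edge lay between 11.9372 and 11.9424 Mb, a range of 5.2 kb, and its right edge between 12.6164 and 12.6304 Mb, a range of 14 kb. The right edge lay furthest in, at 12.6168 and 12.6164 Mb, in TCPOBOP replicate 3 and vehicle replicate 3, the lists with the most islands over the domain. In TCPOBOP replicates 1, 2 and 3 it spanned 692.0, 692.4 and 674.4 kb, and in vehicle replicates 1, 2 and 3 it spanned 691.6, 682.0 and 678.0 kb. The 2 libraries of fragments over 1100 bp gave 688.4 kb (TCPOBOP) and 686.0 kb (vehicle). Spans of the treatments overlapped, and the shortest belonged to TCPOBOP replicate 3 and vehicle replicate 3, the 2 lists with the least covered length.

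A gap set the domain off on each side. On the left, no library had an island for 6.0 kb, from 11.9312 to 11.9372 Mb, and the gap of single lists ran from 6.0 to 12.4 kb. On the right, the 34.0 kb from 12.6304 to 12.6644 Mb were free of islands in all 8 lists. That gap measured 38.0, 37.2 and 47.6 kb in TCPOBOP replicates 1, 2 and 3, and 36.0, 48.4 and 52.4 kb in vehicle replicates 1, 2 and 3. It was 46.8 kb (TCPOBOP) and 49.6 kb (vehicle) with fragments over 1100 bp. In both ChIP samples the gap was thus wider in the list of longer fragments than in that of 600 to 1100 bp. Another shared gap, 4.0 kb from 12.9664 to 12.9704 Mb, ended the dense island.

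Inside the domain the lists differed in the number of islands called. TCPOBOP replicates 1, 2 and 3 listed 6, 4 and 11 islands over it, and vehicle replicates 1, 2 and 3 listed 1, 4 and 12. The longest island over the domain measured 238.4, 292.4 and 138.8 kb in the TCPOBOP livers, against 691.6, 233.2 and 126.0 kb in the vehicle livers. Uncovered length between the outer edges summed to 20.4, 10.4 and 60.8 kb in the TCPOBOP livers, against 0, 11.2 and 110.0 kb in the vehicle livers. Lists with less covered length over the genome mostly held more islands over the domain. The TCPOBOP lists covered 248, 280 and 174 Mb of the genome and the vehicle lists 340, 284 and 196 Mb, and in each treatment the list with the least cover held the most islands over the domain. The part of covered length in these counts was not tested.

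The 32 gaps inside the domain were mostly short and fell at 19 places. Gaps that overlapped, directly or through another gap, were counted as 1 place. Livers sharing a place were therefore not always open at a common base. Their median was 3.2 kb, and 25 of them were at most 5 kb, where 2.8 kb is the smallest gap the lists contain. Of the 19 places, 13 were gaps of 1 liver alone and 6 were shared by 2 or more. Places with TCPOBOP livers alone numbered 6, those with vehicle livers alone 8, and 5 had livers of both treatments.

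The 6 shared places lay between 12.0124 and 12.5544 Mb. The place open in most livers ran from 12.508 to 12.5544 Mb and was uncovered, in part, in 3 TCPOBOP livers and 1 vehicle liver. There TCPOBOP replicates 1, 2 and 3 had gaps of 8.4, 4.0 and 14 kb, with one more of 3.6 kb in replicate 3, and vehicle replicate 3 had the longest gap of all, 44.8 kb. A core of 4.0 kb, from 12.514 to 12.518 Mb, was under no island in any TCPOBOP liver or in vehicle replicate 3, and under islands in vehicle replicates 1 and 2. The places at 12.2284 to 12.2452 Mb and 12.2996 to 12.3268 Mb were each open in TCPOBOP replicate 3, in 1 other TCPOBOP liver and in vehicle replicate 3, with gaps of up to 16.8 and 25.2 kb. That at 12.1132 to 12.122 Mb was open in TCPOBOP replicate 3 and vehicle replicates 2 and 3. At the places shared by 3 livers, no base was uncovered in all 3. The remaining shared places were a gap of 3.2 kb near 12.0124 Mb, in TCPOBOP replicates 1 and 3, and one near 12.3544 Mb, of 4.8 kb in TCPOBOP replicate 3 and 3.2 kb in vehicle replicate 2.

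Fragments over 1100 bp bridged every one of the 19 places, since both of their lists carried the domain as 1 island. In the same ChIP samples the 600 to 1100 bp libraries had 5 gaps (TCPOBOP replicate 1) and 0 gaps (vehicle replicate 1). The lists of longer fragments covered more of the genome, and fragment class and sequencing depth cannot be told apart in these pairs.

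Between its gaps the domain held long stretches present in every liver. Of its 693.2 kb, 514.0 kb (74.1%) lay under islands in all 6 livers, 124.0 kb in 5, and 1.2 kb in 1 alone. The longest stretch in all 6, of 106.4 kb, ran from 12.122 to 12.2284 Mb, and another of 68.4 kb from 12.0164 to 12.0848 Mb. Both were also covered in the libraries of fragments over 1100 bp. No 400 bp step of the window lay under islands in all 3 livers of 1 treatment and in none of the other.

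**Figure D2:**
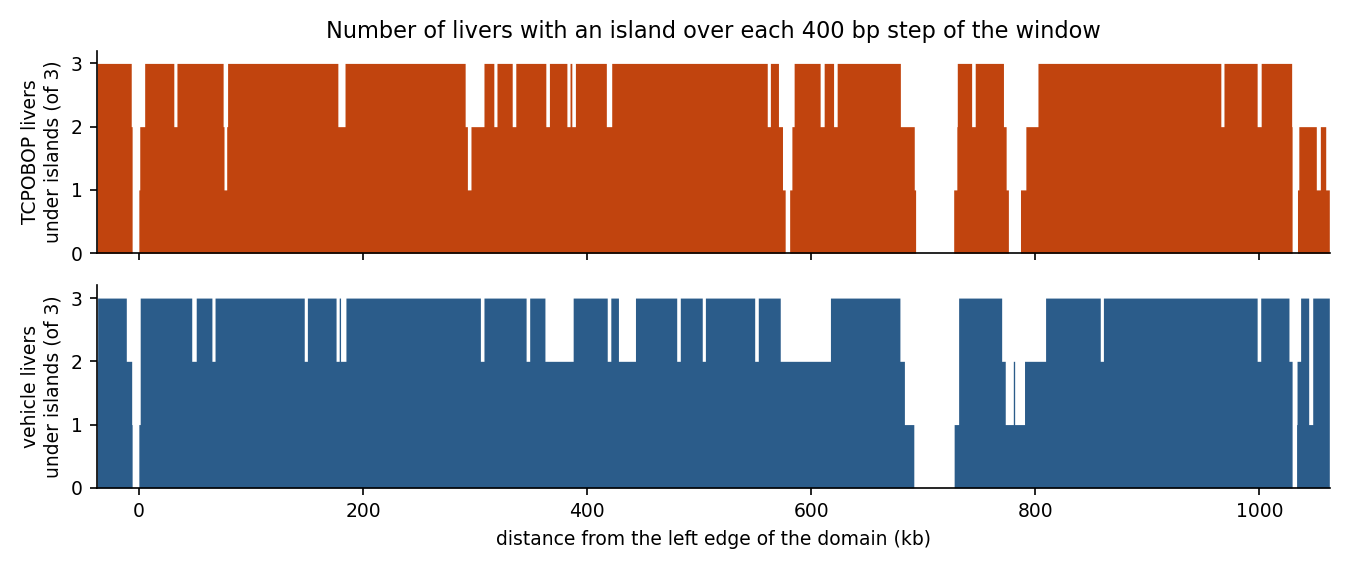
Number of TCPOBOP livers (upper panel) and vehicle livers (lower panel) with an island over each 400 bp step of the window, out of 3 per treatment, against distance in kb from the domain's left edge. The 34.0 kb gap right of the domain is empty in both panels, and 74.1% of the domain stands at the full height in both.

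The islands over the domain also differed in score per kb along its length. The score is the authors' value for an island, and whether it compares between libraries is not known, so it is used here only within a list. Each island's score was spread evenly over its length, and the domain was divided at its midpoint, 12.2838 Mb. The left part then had the higher score per covered kb in the 5 libraries with more than 1 island. TCPOBOP replicates 1, 2 and 3 had 12.8, 12.4 and 7.58 on the left and 10.5, 9.51 and 6.12 on the right. Vehicle replicates 2 and 3 had 16.3 and 8.68 on the left and 14.6 and 8.16 on the right. Ratios of left to right were thus 1.22, 1.31 and 1.24 in the TCPOBOP livers and 1.12 and 1.06 in the vehicle livers. In TCPOBOP replicates 1, 2 and 3 and vehicle replicate 2 an island crossed the midpoint and gave both parts its value. In vehicle replicate 3 islands covered 94.9% of the left part and 69.0% of the right, which a score per covered kb leaves out. A list with 1 island cannot show such a difference, so vehicle replicate 1 and the longer fragments gave no value.

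Low scores per kb recurred right of the domain's longest shared stretch in 3 of the 5 lists with more than 1 island. Vehicle replicate 3 had 3 islands from 12.2452 to 12.3652 Mb scoring 4.16, 3.07 and 5.95 per kb, its 3 lowest over the domain, where its island from 12.0052 to 12.0848 Mb scored 13.03. TCPOBOP replicate 3 had 4.37, 4.71 and 5.35 per kb from 12.2452 to 12.3544 Mb, where its island from 12.0164 to 12.1148 Mb scored 9.41. In that list the lowest value, 3.94, lay elsewhere, from 12.522 to 12.5452 Mb. The highest, 12.4 per kb, was also right of the domain's midpoint, in an island of 7.2 kb from 12.5008 to 12.508 Mb. TCPOBOP replicate 1 had its 2 lowest, 6.18 and 6.26 per kb, from 12.2568 to 12.3192 Mb, against 14.4 for the 238.4 kb island to their left. Vehicle replicate 2 scored lowest, 11.6 per kb, in its island from 12.122 to 12.3552 Mb, but that island holds the longest shared stretch too and cannot place the low score within it. TCPOBOP replicate 2 had its lowest value, 7.06 per kb, from 12.518 to 12.5572 Mb. An island of 36.8 kb from 12.3804 to 12.4172 Mb scored 14.3 per kb in vehicle replicate 3, the highest of that list's domain islands, and the other livers listed that stretch within longer islands. These stretches were picked after their values were seen.

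The best-scoring island over the domain ranked 6, 3 and 31 in the lists of TCPOBOP replicates 1, 2 and 3, and 1, 15 and 36 in those of vehicle replicates 1, 2 and 3. It ranked 1 in both lists of fragments over 1100 bp, where it was also the widest island. By width, the widest island over the domain ranked 4, 2 and 12 in the TCPOBOP lists and 1, 7 and 15 in the vehicle lists of 600 to 1100 bp. In vehicle replicates 2 and 3 the widest island was not the best-scoring one. Taken as a sum over its islands, the domain's share of all score in a list varied less than its rank. That share was 0.436, 0.409 and 0.430% in the TCPOBOP livers and 0.414, 0.422 and 0.366% in the vehicle livers. With fragments over 1100 bp it was 0.381% (TCPOBOP) and 0.413% (vehicle), while the domain's share of covered length there was 0.102 and 0.105%, against 0.203 to 0.353% in the 600 to 1100 bp lists.

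Joining islands across gaps of up to 10 kb gave 1 island over the domain in 4 of 6 livers. The joined island over it, which took in the upstream island, spanned 745.6 and 736.8 kb in TCPOBOP replicates 1 and 2 and 734.8 and 725.2 kb in vehicle replicates 1 and 2. It ranked 1 or 2 by width and by summed score in each of these lists. TCPOBOP replicate 3 and vehicle replicate 3 still had 3 and 4 joined islands there, the longest of 286.0 and 361.2 kb. With fragments over 1100 bp, joining gave 788.4 kb (TCPOBOP) and 739.6 kb (vehicle), at rank 2 by score in both lists and at ranks 25 and 40 by width.

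The dense island right of the domain carried more score per kb than the domain itself in all 6 livers. It ran to a right edge between 12.9636 and 12.9664 Mb in all 8 lists, a range of 2.8 kb, whereas its left edge varied over 28.8 kb. It scored 19.6, 15.6 and 9.45 per kb in TCPOBOP replicates 1, 2 and 3, where the domain scored 11.7, 11.0 and 6.86. In vehicle replicates 1, 2 and 3 it scored 29.7, 24.9 and 14.2, where the domain scored 16.9, 15.4 and 8.46. The ratio of dense island to domain was therefore 1.68, 1.42 and 1.38 in the TCPOBOP livers and 1.76, 1.61 and 1.68 in the vehicle livers. This comparison was chosen after the values had been seen and carries no test.

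Fragments over 1100 bp gave ratios near 1. Their dense island scored 64.3 (TCPOBOP) and 81.6 (vehicle) per kb against 68.1 and 76.9 for the domain, ratios of 0.944 and 1.06. In the 600 to 1100 bp class, these ChIP samples had ratios of 1.68 (TCPOBOP) and 1.76 (vehicle). Only 0.303 and 0.432% of islands in the TCPOBOP and vehicle lists of longer fragments were denser than the domain, against 4.84 to 21.8% in the lists of 600 to 1100 bp. With 2 pairs no test was made, and how the score changes with depth was not tested.

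**Figure D3:**
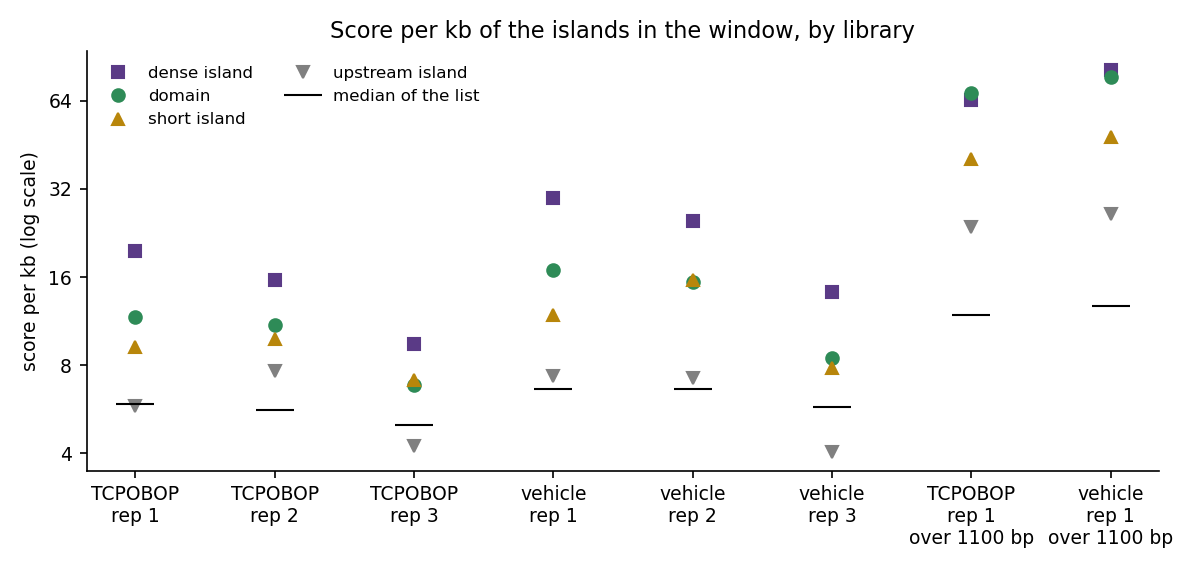
Score per kb, on a log scale, of the dense island, the domain, the short island and the upstream island in each library, with the median of all islands of that list as a bar. The dense island stands above the domain in the 6 libraries of 600 to 1100 bp, by ratios of 1.38 to 1.76, and the 2 lie close together in the libraries of fragments over 1100 bp.

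The dense island kept a high rank in every list of 600 to 1100 bp. Its best-scoring island ranked 4, 4 and 6 in the TCPOBOP lists and 6, 2 and 5 in the vehicle lists, out of 6295 to 14748 islands. In the lists of fragments over 1100 bp it ranked 16 (TCPOBOP) and 10 (vehicle). It was 1 island in TCPOBOP replicate 1 and vehicle replicates 1 and 2, 2 islands in TCPOBOP replicates 2 and 3, and 3 in vehicle replicate 3. The bin from 12.8 to 12.9 Mb, inside it, was 100% covered in all 6 livers.

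The short island, between the domain and the dense island, and the upstream island scored less per kb than the dense island in all 8 lists. Against the domain, the short island scored more in TCPOBOP replicate 3 and vehicle replicate 2 and less in the other lists. The short island scored 9.23, 9.85 and 7.10 per kb in the TCPOBOP livers and 11.9, 15.6 and 7.82 in the vehicle livers. The upstream island scored 5.83, 7.66 and 4.23 in the TCPOBOP livers and 7.36, 7.26 and 4.06 in the vehicle livers, or 0.704 to 1.36 times the median island of the list. With fragments over 1100 bp the upstream island reached 23.7 (TCPOBOP) and 26.2 (vehicle), where the list medians were 11.9 and 12.7.

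Set against genome tiles of its length, the window was more covered than any in each of the 6 livers, as its choice made likely. Tiles started at fixed positions and were not fitted to other regions, whereas the window was placed to hold the domain. The window was 88.9% covered as a mean of the 6 livers, while none of 2394 tiles of 1.1 Mb elsewhere reached that value. The median tile was 4.93% covered and the highest 66.1%, on chromosome 6 from 52.8 to 53.9 Mb. The next tile, on chromosome 11 from 95.7 to 96.8 Mb, was 63.5% covered. With fragments over 1100 bp the window was 92.7% (TCPOBOP) and 92.8% (vehicle) covered, and 3 and 4 of the listed tiles were higher, where the median tile stood at 21.4 and 19.7%.

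The other long regions shared by the 6 livers were also called as several islands in most lists. The 464.8 kb region on chromosome 4 held 12, 7 and 7 islands in the TCPOBOP livers and 2, 11 and 13 in the vehicle livers, or 1.51 to 2.58 per 100 kb with TCPOBOP and 0.430 to 2.797 with vehicle. The domain held 0.577 to 1.59 islands per 100 kb in the TCPOBOP livers and 0.144 to 1.73 in the vehicle livers. Those values were lower than for the chromosome 4 region in 7 of 8 lists and higher in TCPOBOP replicate 3. The counts are per length of region, covered or not, so fewer islands can also mean less cover. In TCPOBOP replicate 3 islands covered 53.0% of the chromosome 4 region and 88.5% of the domain. In vehicle replicate 3 they covered 62.5 and 81.9%. The 407.6 kb region on chromosome 11 held 0.981 to 1.96 per 100 kb in the TCPOBOP livers and 0.245 to 1.47 in the vehicle livers, and was not analysed in the lists of longer fragments, whose ranks, shares and tile counts cover only the islands analysed here. Per kb, the domain scored less than the chromosome 11 region in all 6 livers, where that region had 9.35 (TCPOBOP replicate 3) to 20.5 (vehicle replicate 1). It scored more than the chromosome 4 region in all 6, where that region had 5.43 (TCPOBOP replicate 3) to 11.98 (vehicle replicate 1). These regions were ranked by length, so no test was made.

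The comparison of treatments asked whether 3 h of TCPOBOP altered the window. Islands covered 91.0, 92.7 and 83.6% of it in TCPOBOP replicates 1, 2 and 3, against 95.0, 92.5 and 78.7% in vehicle replicates 1, 2 and 3. The lowest and the highest liver both belonged to vehicle. The means were 89.1 ± 4.80% with TCPOBOP and 88.7 ± 8.79% with vehicle (SD, n = 3 each). They differed by 0.352 percentage points (two-sided exact permutation p = 0.9). The choice of the window did not use the treatments, but it asked for cover in every liver, which limits how far they could differ.

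Numbers of islands in the window were 10, 10 and 16 in the TCPOBOP livers and 5, 9 and 19 in the vehicle livers. They averaged 12 ± 3.46 with TCPOBOP and 11 ± 7.21 with vehicle (SD, n = 3 each, difference 1, two-sided exact permutation p = 0.8). The longest island measured 238.4, 292.4 and 174.0 kb in the TCPOBOP livers and 691.6, 248.8 and 137.2 kb in the vehicle livers. It averaged 235 ± 59.3 kb with TCPOBOP and 359 ± 293 kb with vehicle (SD, n = 3 each), a difference of -124 kb (two-sided exact permutation p = 0.8). All 3 differences were smaller than the spread of the vehicle livers, the adjusted p over the 3 exact permutation tests was 0.9 for each, and 0.1 is the smallest p that 20 labellings allow.

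Single livers set the direction of all 3 differences. That in cover was -0.594 and -1.43 percentage points without TCPOBOP replicates 1 and 2, and -4.67 without vehicle replicate 3. For island number the difference became -1 when TCPOBOP replicate 3 was left out, -2 without vehicle replicate 1 and 0 without vehicle replicate 2, and that in longest island was 41.9 kb without vehicle replicate 1. Within the lists with a lowest score over 60 the differences were -6.87 percentage points, 8 islands and -458 kb, and within those under 60 they were 5.38 percentage points, -4 islands and 45.4 kb.

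**Figure D4:**
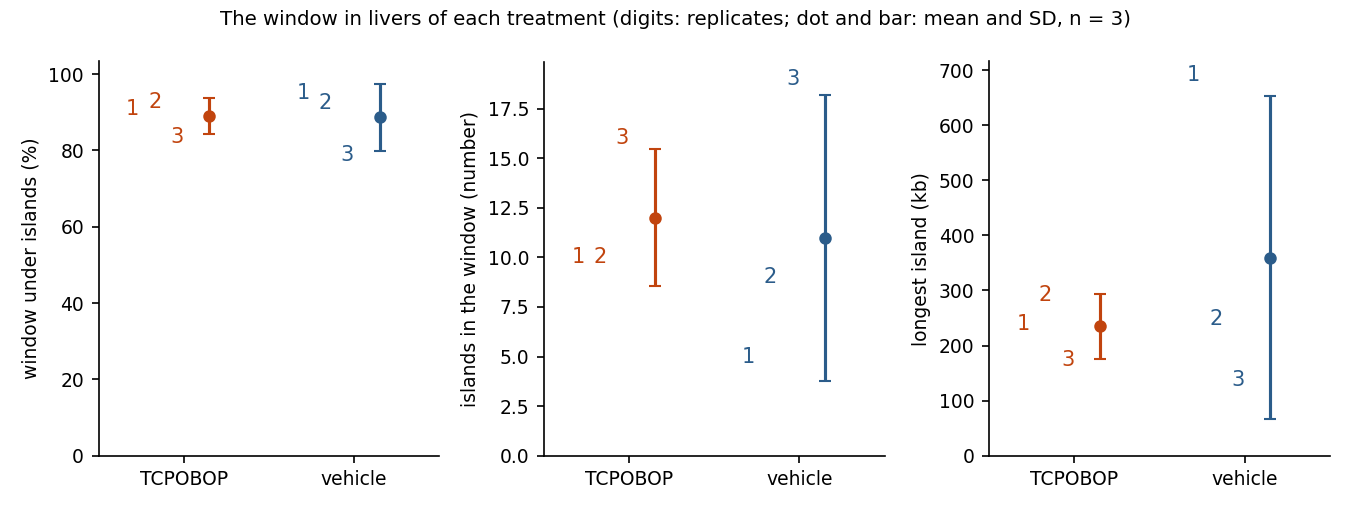
Cover of the window (%), number of islands and length of the longest island (kb) in the TCPOBOP livers (left) and the vehicle livers (right); digits mark the replicates, and dots with bars are the mean and SD of 3 livers. The treatments overlap in all 3 panels, with cover of 83.6 to 92.7% for TCPOBOP and 78.7 to 95.0% for vehicle.

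A fit over 100 kb bins of the whole genome called no difference between the treatments. With limma, none of 9021 bins passed an adjusted p of 0.05, so 0% were called higher and 0% lower in TCPOBOP livers, and 284 had an unadjusted p under 0.05. None of the window's 11 bins had an unadjusted limma p under 0.05, the smallest being 0.287. In none of the 11 bins were the treatments without overlap, where 6.81% of the 9021 bins were. The estimates were higher with TCPOBOP in 6 bins, lower in 4 and 0 in the bin inside the dense island, and with each library centred on its mean over bins they were higher in 9 and lower in 2.

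The 2 bins with the largest estimates lay at opposite signs. From 12.9 to 13 Mb, over the end of the dense island and the tail, cover was 91.6, 86.4 and 63.6% in TCPOBOP replicates 1, 2 and 3, against 96.0, 92.0 and 82.8% in vehicle replicates 1, 2 and 3. The difference was -9.73 percentage points (limma SE 8.61, limma adjusted p = 0.998). From 12.3 to 12.4 Mb, cover was 94, 100 and 92% in the TCPOBOP livers, against 100, 96.8 and 60% in the vehicle livers. There the difference was 9.73 percentage points (limma SE 10.0, limma adjusted p = 0.998), with vehicle replicate 3 below the other 5 livers. A p that misses the threshold does not show that the treatments had equal cover.

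**Figure D5:**
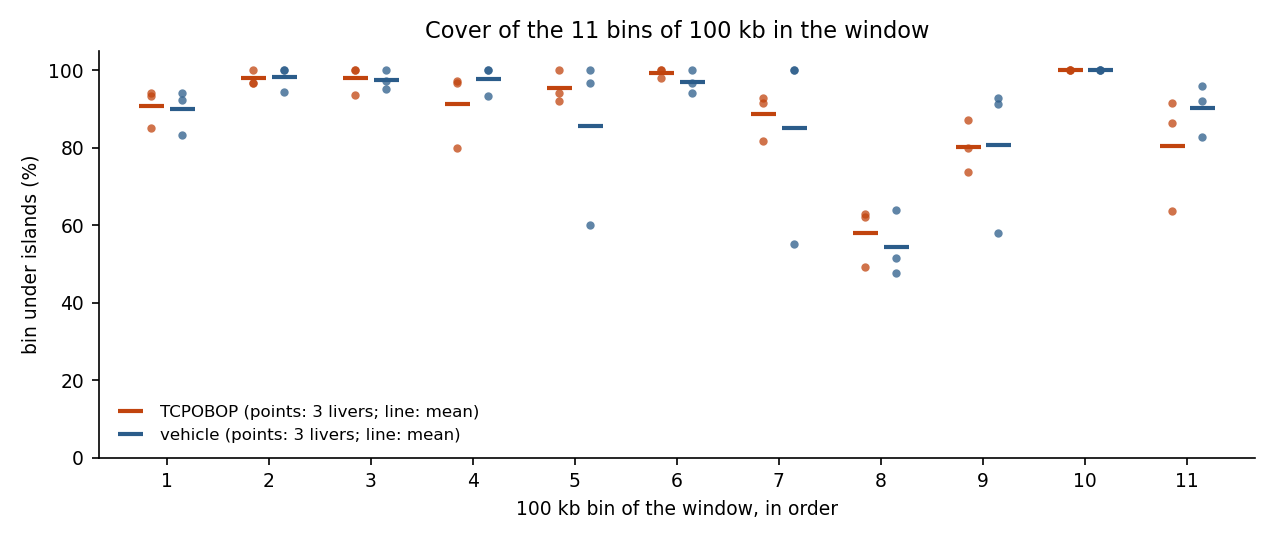
Percent of each of the 11 bins of 100 kb under islands, in order along the window, for the TCPOBOP livers (left of each pair) and the vehicle livers (right); points are livers and lines are means of 3. The bin with the lowest means, the eighth, holds the shared gap and stands at 49.2 to 62.8% with TCPOBOP and 47.6 to 64% with vehicle.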

How the data were processed

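H3K27me3 ChIP-seq islands were analysed from 8 lists, 1 per library. The deposited score is the authors' value per island; per the submitters' processing notes Bowtie2 2.3.2, SICER 1.1 and mm9 were used, without roles or an input being given. All island edges lay on a 400 bp grid and the smallest gap between islands was 2800 bp. Coordinates are mm9, 1-based. The window ran from 11900001 to 13000000 of chromosome 8, and the domain is the union region from 11937201 to 12630400. Window, lists and tests were chosen with earlier results of these data known; the named items were Sox1, up to 5 neighbouring protein-coding genes on each side, the 3 longest regions covered to at least 50% in all 6 lists, the 2 tiles nearest in cover, and gaps shared by 2 or more libraries. Cover, island number and longest island were compared with exact permutation tests over 20 labellings. Cover of 100 kb bins with a mean of at least 5% was fitted with limma 3.58.1 (trend, Benjamini-Hochberg adjustment) in R 4.3.3, after a test on simulated data. The remaining steps used scipy 1.17.1, pandas 2.3.3 and numpy 2.4.6 in Python 3.11.15, and matplotlib 3.10.9 drew the plots. Promoters are RefSeq's (GRCm38.p6); 10 of the 11 genes in the gene order had an entry, all but A230072I06Rik. How the score was computed, and the depth of each library, are not stated, so precision is given by the spread between livers alone. Replicates are separate livers.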

Additional observations from a re-analysis of the deposited data

How the results depend on the processing

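No exact test passed 0.05 under any alternative, which the design does not allow. With islands scoring at least 84.6, with each list trimmed to the covered length of the shortest, or with the 693.2 kb region alone, the 3 differences kept their direction. With 1 liver left out, cover ranged from -4.67 to 3.49 percentage points, island number from -2 to 5 and longest island from -235 to 41.9 kb. With the islands of a ChIP sample's 2 libraries merged, island number was -0.667 and longest island 26.9 kb; with gaps of up to 10 kb joined, island number was 0. The split by lowest score was chosen after seeing the data: cover was -6.87 percentage points over 60, and island number -4 and longest island 45.4 kb under 60. The cause was not tested. The replicate block kept 0.352 percentage points, 1 island and -124 kb (exact sign-flip p = 0.75, 0.75 and 1, smallest possible 0.25), and limma called 0 bins with it. Same-numbered livers' deviations correlated at 0.139, 0.0773 and 0.265. TCPOBOP replicates 1 and 3 correlated best with the vehicle liver of their own number, and TCPOBOP replicate 2 with vehicle replicate 1 (0.111). The main tests did not take the numbers to pair the livers, and these correlations do not settle whether they do. limma called 0 bins in all 13 alternatives, with a lowest adjusted p of 0.687 to 1. The alternatives tested different numbers of bins. An unadjusted limma p under 0.05 was found in 75 of 7529 bins with the score minimum and in 791 of 33005 bins of 20 kb. Without vehicle replicate 3 it was found in 632 of 9021 bins, a larger share than in either. With shifted tile starts, no tile of 1.1 Mb passed the window in any of the 6 livers either. With fragments over 1100 bp, 3 (TCPOBOP) and 6 (vehicle) shifted tiles were more covered than the window. Depth is unknown, so gaps are not read as absence of the mark.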
